A study of Mus musculus with 11 samples.

Results

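The miR-30 family was followed through 5 microRNAs (miRNAs), mmu-miR-30a-5p, mmu-miR-30b-5p, mmu-miR-30c-5p, mmu-miR-30d-5p and mmu-miR-30e-5p, chosen by name from the 1247 mouse miRNAs on the array and written from here without the prefix for mouse. All 5 passed the filter on low signals, which kept 369 miRNAs. Macrophages carrying GFP were sorted from hearts of Cx3cr1GFP/+ mice aged 2 to 3 months, a knock-in in which 1 copy of the fractalkine receptor gene is replaced by GFP. All groups shared this genotype. Cells with the profile Ly6Clow/CX3CR1high came from uninjured hearts that had no surgery (day 0, 2 arrays) and from hearts 7 days (3 arrays) and 30 days (3 arrays) after cryoinjury, a freezing lesion used as a model of myocardial infarction. Cells with the profile Ly6Chigh/CX3CR1low came from hearts 3 days after cryoinjury (3 arrays) and from no other day, so in every comparison with day 3 the stage and the cell profile cannot be told apart. Uninjured hearts had no sham operation, so surgery and lesion cannot be told apart either. Each array received Cy3-labelled total RNA from independent biological replicates, according to the labels, and the small number of arrays limits the precision.

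A miRNA is a short RNA that guides the silencing complex to messenger RNAs, which it recognises mainly by its seed, bases 2 to 8 from the 5′ end. The precursor hairpin yields 2 possible mature strands, the 5p and the 3p arm, and in the miR-30 family the 5p arms carry the common seed. Because of that seed the family members are predicted to share many target messages. The family is known in the heart for its abundance in cardiomyocytes and fibroblasts and for targeting connective tissue growth factor and autophagy genes such as Beclin 1. The 5 members come from 6 hairpins in 3 neighbouring pairs, Mir30a with Mir30c-2 on chromosome 1, Mir30b with Mir30d on chromosome 15, and Mir30c-1 with Mir30e on chromosome 4.

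The sequences are shown because the members share a seed and differ by few bases, and miR-384-5p because it has the same seed. The sequences are those of RefSeq on GRCm38.p6, read 5′ to 3′, with the seed in capitals, and 3 of the 5 members matched an entry.
miR-30a-5p: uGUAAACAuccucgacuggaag
miR-30c-5p: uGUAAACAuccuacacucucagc
miR-30e-5p: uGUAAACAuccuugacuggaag
miR-384-5p: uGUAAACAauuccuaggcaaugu
miR-30a-5p lies at chr1:23272274-23272295 on the plus strand. miR-30c-5p is encoded identically at chr1:23291714-23291736 on the plus strand and at chr4:120769584-120769606 on the minus strand, so its signal cannot be assigned to 1 hairpin. miR-30e-5p lies at chr4:120772660-120772681 on the minus strand, and miR-384-5p at chrX:105344332-105344354 on the minus strand. Counted from 1 at the 5′ end, miR-30a-5p differed from miR-30e-5p by C13U alone (21 of 22 positions identical), and from miR-30c-5p by C13A, G14C, G18C, G19U and A20C (17 of 22 identical). The seed GUAAACA stood at bases 2 to 8 of 4 of the 1679 distinct mature entries of that table, an incomplete list, and these are the 4 shown. How far the probes separate members this similar was not tested.

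Array brightness differed between the groups and bears on every level given. For the 126 miRNAs that every array detected, the 75th percentile of signal in scanner units lay between 55.7 and 163 on day 0 arrays, 805 and 1607 on day 3 arrays, 114 and 323 on day 7 arrays, and 1453 and 2304 on day 30 arrays. It spanned 41.4-fold, against 2.16-fold for 4 control features of the array. An array detected 151 to 173 miRNAs on day 0, 301 to 338 on day 3, 208 to 270 on day 7 and 290 to 340 on day 30. Each array was divided by that percentile, and levels are log2 of the result. Replicates 2 and 3 of day 30 were closer than the scanner's error alone would leave them, with a squared difference 0.205 times that expected from it (2.79 to 39.0 times for the other 9 pairs of replicates). Their mean entered as 1 sample, leaving 2, 3, 3 and 2 samples at days 0, 3, 7 and 30. Since the samples are bulk RNA, fewer cells of a type and less RNA per cell cannot be told apart.

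Markers fixed for the cells and their possible companions were read on the same arrays. The leukocyte miRNAs miR-223-3p and miR-142a-3p were detected on all 11 arrays, and the summed scaled signal of their list of 3 was 3.90 to 7.16 on day 0, 14.2 to 17.9 on day 3, 2.38 to 3.58 on day 7 and 7.94 to 9.33 on day 30. This sum mainly follows miR-223-3p, with mean levels of 2.36, 3.87, 1.53 and 2.68 at days 0, 3, 7 and 30. Those of miR-142a-3p were -2.72, 0.10, -2.64 and 0.91, highest at day 30. The third, miR-142a-5p, was detected on 7 arrays, with means of -3.39 at day 3 and -1.70 at day 30. Of 6 cardiomyocyte miRNAs, miR-133a-3p and miR-133b-3p were detected on all arrays, while the defining miR-208a-3p, miR-208b-3p and miR-499-5p were detected on none. The remaining miR-1a-3p was detected on 6 arrays. Its levels there were -4.53, -5.51 and -5.46 at day 30, -6.28 and -6.65 on day 3 replicates 1 and 3, and -6.61 on day 7 replicate 1. By contrast, the mean of miR-133a-3p went from -5.04 at day 7 to -6.51 at day 30, and that of miR-133b-3p from -4.18 to -5.54. The sum of the cardiomyocyte list was 0.101 to 0.164 on day 0, 0.0158 to 0.0381 on day 3, 0.0698 to 0.120 on day 7 and 0.0526 to 0.0773 on day 30. The list of 5 fibroblast and smooth muscle miRNAs summed to 0 to 0.0312 on day 0, 0.0820 to 0.112 on day 3, 0.165 to 0.412 on day 7 and 0.195 to 0.212 on day 30. Its members differed. From day 7 to day 30 the mean of miR-214-3p went from -3.42 to -6.51 and that of miR-199a-5p from -4.95 to -5.29. That of miR-199a-3p went from -3.06 to -2.67. miR-143-3p was detected at day 30 (-6.64) but not at day 7, and miR-145a-5p on no array. The 2 endothelial miRNAs summed to 0.0647 to 0.417, 0.306 to 0.402, 0.287 to 0.342 and 0.248 to 0.266 at days 0, 3, 7 and 30. The 2 erythroid miRNAs summed to 0 on both day 0 arrays, 0.0288 to 0.0564 on day 3, 0 to 0.0104 on day 7 and 0.0815 to 0.106 on day 30. The part of these cells in the miR-30 values was not tested.

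On the chosen scale miR-30a-5p was called in 4 of 6 comparisons, with its lowest level at day 3 and its highest mean at day 30, whereas with no scaling or on the array's control features it was called in 3 of 6 and each other member in 4 or 5. Across the 6 comparisons the chosen scale called 14 to 208 of all 369 miRNAs, no scaling 45 to 276 and the control features 80 to 274. Relative to miR-30c-5p, miR-30d-5p and miR-30e-5p on the same arrays miR-30a-5p was also lower at day 3 than at day 0. The log2 shifts were -2.62, -1.83 and -4.38, in contrasts where 15.5%, 31.2% and 40.5% of all miRNAs were called. Relative to miR-30b-5p the shift was -3.18 and not called (limma adjusted p = 0.101), where 1.09% were. In raw terms its signal was 76.8 and 14.2 scanner units at day 0, 48.5, 38.7 and 77.5 at day 3, 37.9, 7.64 and 21.3 at day 7, and 994, 712 and 862 at day 30, and it was detected on all 11 arrays. Set against each array's percentile, its level was -1.09 and -1.97 at day 0, -4.31, -4.38 and -4.37 at day 3, -3.09, -3.90 and -3.61 at day 7, and -1.21, -1.03 and -1.02 at day 30. The 3 day 3 arrays lay below every other array, the day 7 arrays came next, and the ranges of day 0 and day 30 overlapped. In order of mean level, day 30 (-1.12 ± 0.13, SD, n = 2) was highest, followed by day 0 (-1.53 ± 0.63, n = 2), day 7 (-3.53 ± 0.41, n = 3) and day 3 (-4.35 ± 0.04, n = 3). Neighbours in this order whose difference missed the threshold were day 30 and day 0, and day 7 and day 3.

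**Figure D1:**
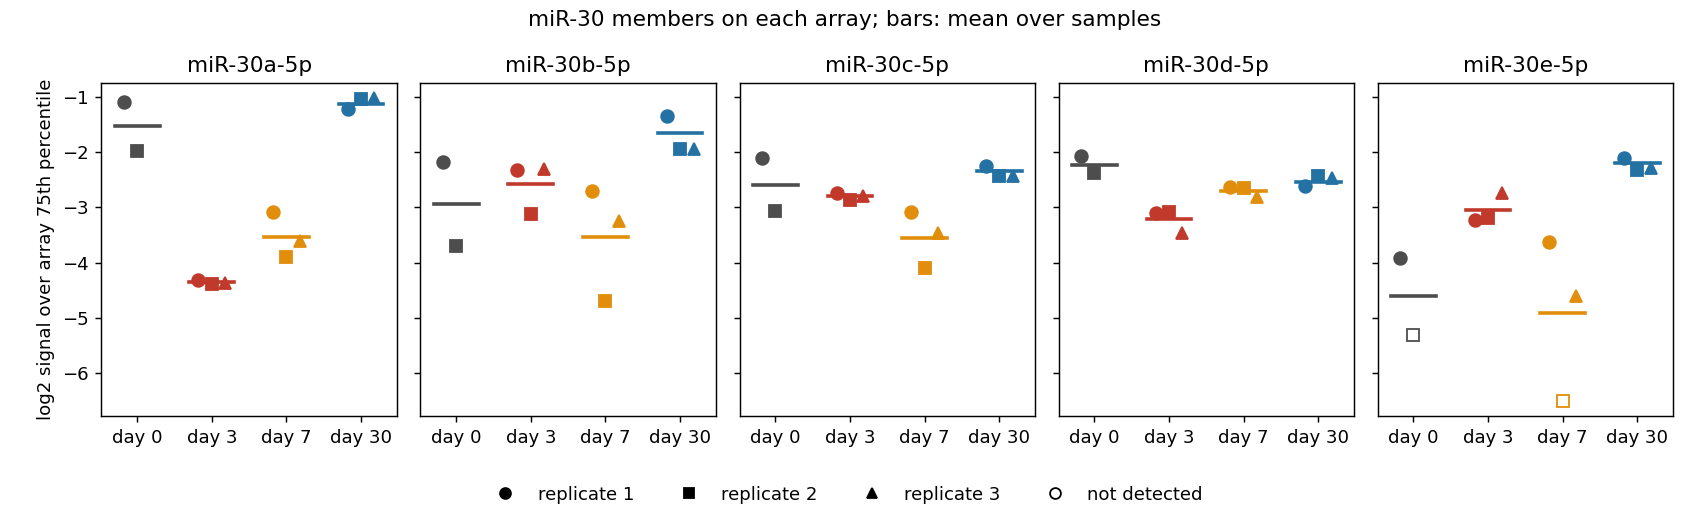
Level of each miR-30 member on every array (log2 of signal over the array's 75th percentile) by day, with 1 point per array and its shape for the replicate; open points are not detected, and bars are group means over samples. miR-30a-5p is lowest on the 3 day 3 arrays and has its highest mean at day 30, whereas miR-30e-5p at day 3 lies above its day 0 and day 7 arrays.

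The fold changes come from limma, fitted to all 369 miRNAs and 4 groups at once, with Benjamini-Hochberg adjustment over the 369 miRNAs of a comparison and a threshold of 0.05. Between day 30 and day 3, miR-30a-5p rose by 3.24 on the log2 scale (SE 0.44, limma adjusted p = 0.000298), a 9.42-fold difference, with all day 30 arrays above all day 3 arrays. It rose by 2.41 between day 30 and day 7 (SE 0.44, limma adjusted p = 0.00104). Against day 0, miR-30a-5p fell by 2.82 at day 3 (SE 0.44, limma adjusted p = 0.000672), though not with no scaling (0.67, not called), and fell by 2.00 at day 7 (SE 0.44, limma adjusted p = 0.0281). The remaining pairs were not called: 0.41 for day 30 over day 0 (limma adjusted p = 0.466) and 0.82 for day 7 over day 3 (limma adjusted p = 0.0978). Over the 126 commonly detected miRNAs the median change was -0.49 for day 30 over day 3, -0.57 for day 30 over day 7, -0.77 for day 3 over day 0 and -0.21 for day 7 over day 0. Measured from those medians, the miR-30a-5p changes were 3.73, 2.98, -2.06 and -1.79.

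The rise of miR-30a-5p between day 30 and day 3 was called under all 13 other settings (2.92 to 4.18) and without each array in turn. In all leave-outs, dropping day 30 replicate 2 or 3 kept the other array as their shared sample, so that sample was never left out. The comparison of day 3 with day 0 depended on the scaling: with no scaling it had a limma adjusted p of 0.501, with the array's control features as the scale the difference was 0.16 (limma adjusted p = 0.844), and with the percentile over all miRNAs -0.28 (limma adjusted p = 0.871). With no scaling the median of all tested miRNAs was itself 2.34 higher at day 3 than at day 0. The day 7 call against day 0 was lost under 4 settings and when day 3 replicate 1, 2 or 3, day 7 replicate 3 or day 30 replicate 1 was left out (limma adjusted p up to 0.106, at a change of -1.96 without day 7 replicate 3). The day 30 call against day 7 was lost with brightness as a covariate (1.20, limma adjusted p = 0.262). Day 30 against day 0 was called with the percentile over all miRNAs, with no scaling and on the control features (3.36, 4.74 and 4.34), and day 7 against day 3 turned to -0.39, -1.52 and -0.98 under the same settings, none of them called. Without day 0 replicate 1 or 2, day 7 against day 3 was called (0.82, limma adjusted p = 0.0357 in both).

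The arrays lay on 2 slides, each with arrays of all 4 groups. On slide 1 and slide 2 the miR-30a-5p change was 3.13 and 3.35 for day 30 over day 3, 2.14 and 2.87 for day 30 over day 7, -3.25 and -2.41 for day 3 over day 0, and -2.26 and -1.92 for day 7 over day 0. Each of these kept its direction on both slides.

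The other 4 members were detected on all 11 arrays, except miR-30e-5p, which was not detected on day 0 replicate 2 and day 7 replicate 2. These are the dimmest arrays of their groups. miR-30b-5p, encoded beside miR-30d-5p, had levels of -2.19 and -3.69 at day 0, -2.32, -3.11 and -2.31 at day 3, -2.69, -4.69 and -3.24 at day 7, and -1.35, -1.94 and -1.95 at day 30. The day 30 arrays lay above all others, and those of days 0, 3 and 7 overlapped. It rose by 1.90 between day 30 and day 7 (SE 0.63, limma adjusted p = 0.0253), its only called comparison. Without day 7 replicate 2 this change was 1.32 (limma adjusted p = 0.0861), without day 30 replicate 1 it was 1.60 (limma adjusted p = 0.179), and with brightness as a covariate it turned to -1.44 (limma adjusted p = 0.203). The call was also lost with quantile normalization and the highest floor (limma adjusted p = 0.0612 and 0.123). Day 30 against day 0, at 1.29 and not called (limma adjusted p = 0.121), was called under 7 of 13 other settings (1.13 to 5.62, limma adjusted p = 0.00212 to 0.0459) and without day 0 replicate 1 (2.05, limma adjusted p = 0.0253).

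miR-30c-5p, the member made from a hairpin beside Mir30a and another beside Mir30e, had levels of -2.11 and -3.07 at day 0, -2.73, -2.86 and -2.79 at day 3, -3.09, -4.10 and -3.47 at day 7, and -2.25, -2.42 and -2.42 at day 30. Day 7 was the lowest group and overlapped no other, although day 0 replicate 2 lay close to its highest array. Between day 30 and day 7 miR-30c-5p rose by 1.21 (SE 0.46, limma adjusted p = 0.0438). That call was lost when day 3 replicate 1, 2 or 3, day 7 replicate 2 or 3 or day 30 replicate 1 was left out (0.94 and limma adjusted p = 0.122 without day 7 replicate 2), and with brightness as a covariate the change was -0.42 (limma adjusted p = 0.663). The call was also lost with all miRNAs tested and the highest floor (limma adjusted p = 0.0722 and 0.0570).

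miR-30d-5p, which spanned the narrowest range of the 5, had levels of -2.07 and -2.38 at day 0, -3.10, -3.08 and -3.47 at day 3, -2.63, -2.64 and -2.82 at day 7, and -2.61, -2.43 and -2.47 at day 30. It was lowest at day 3, as miR-30a-5p was, and fell by 0.99 against day 0 (SE 0.39, limma adjusted p = 0.0465). This call was lost in 7 of 11 leave-outs, those of any day 3 array, day 0 replicate 1, day 30 replicate 1 and replicate 1 or 3 of day 7 (limma adjusted p up to 0.148), and the fall was not called in 8 of 13 other settings. Its direction turned to 2.50 with no scaling and to 1.99 on the control features, both called as a rise (limma adjusted p = 0.00542 and 0.00379), and to 1.55 on the percentile over all miRNAs (limma adjusted p = 0.0715). The call was lost, at -0.99 to -0.47, when scaled to the median, with quantile normalization, in the authors' table, with all miRNAs tested and with brightness (limma adjusted p = 0.0939 to 0.395). The F test across the 4 groups did not call miR-30b-5p, miR-30c-5p or miR-30d-5p (limma adjusted p = 0.0743, 0.0927 and 0.133).

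miR-30e-5p, 1 base from miR-30a-5p, had levels of -3.92 and -5.30 at day 0, -3.23, -3.19 and -2.74 at day 3, -3.63, -6.50 and -4.60 at day 7, and -2.10, -2.33 and -2.28 at day 30. Its day 3 arrays lay above all day 0 and day 7 arrays, the reverse of the place of miR-30a-5p at day 3. It rose by 2.71 between day 30 and day 7 (SE 0.70, limma adjusted p = 0.00678) and by 2.41 between day 30 and day 0 (SE 0.77, limma adjusted p = 0.0183), and fell by 1.86 between day 7 and day 3 (SE 0.63, limma adjusted p = 0.0355). For day 3 over day 0 its change was 1.56, not called (limma adjusted p = 0.0750), but it was called under 7 of 12 other settings (1.46 to 4.77, limma adjusted p = 0.00390 to 0.0474), among them 4 other scales and the authors' table. It was also called without day 0 replicate 1 (2.25, limma adjusted p = 0.0323) and without day 7 replicate 1 or 2 (limma adjusted p = 0.0362 and 0.0202). The day 30 call against day 0 was lost without day 0 replicate 2, where miR-30e-5p was not detected (1.72, limma adjusted p = 0.136), and without day 30 replicate 1 (2.31, limma adjusted p = 0.0791). The day 7 call against day 3 was lost without any 1 of the 3 day 3 arrays or without day 7 replicate 3, and without day 7 replicate 2, where miR-30e-5p was not detected, the change was -1.06 (limma adjusted p = 0.130). It was also lost on the percentile over all miRNAs, with quantile normalization and with the highest floor (limma adjusted p = 0.0845, 0.0864 and 0.0827). With brightness as a covariate the 3 changes turned to -1.02, -2.67 and 0.90, none of them called. The F test called miR-30e-5p and miR-30a-5p (limma adjusted p = 0.0113 and 0.000349), 2 of 5 members, where 78.9% of all tested miRNAs were called.

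**Figure D2:**
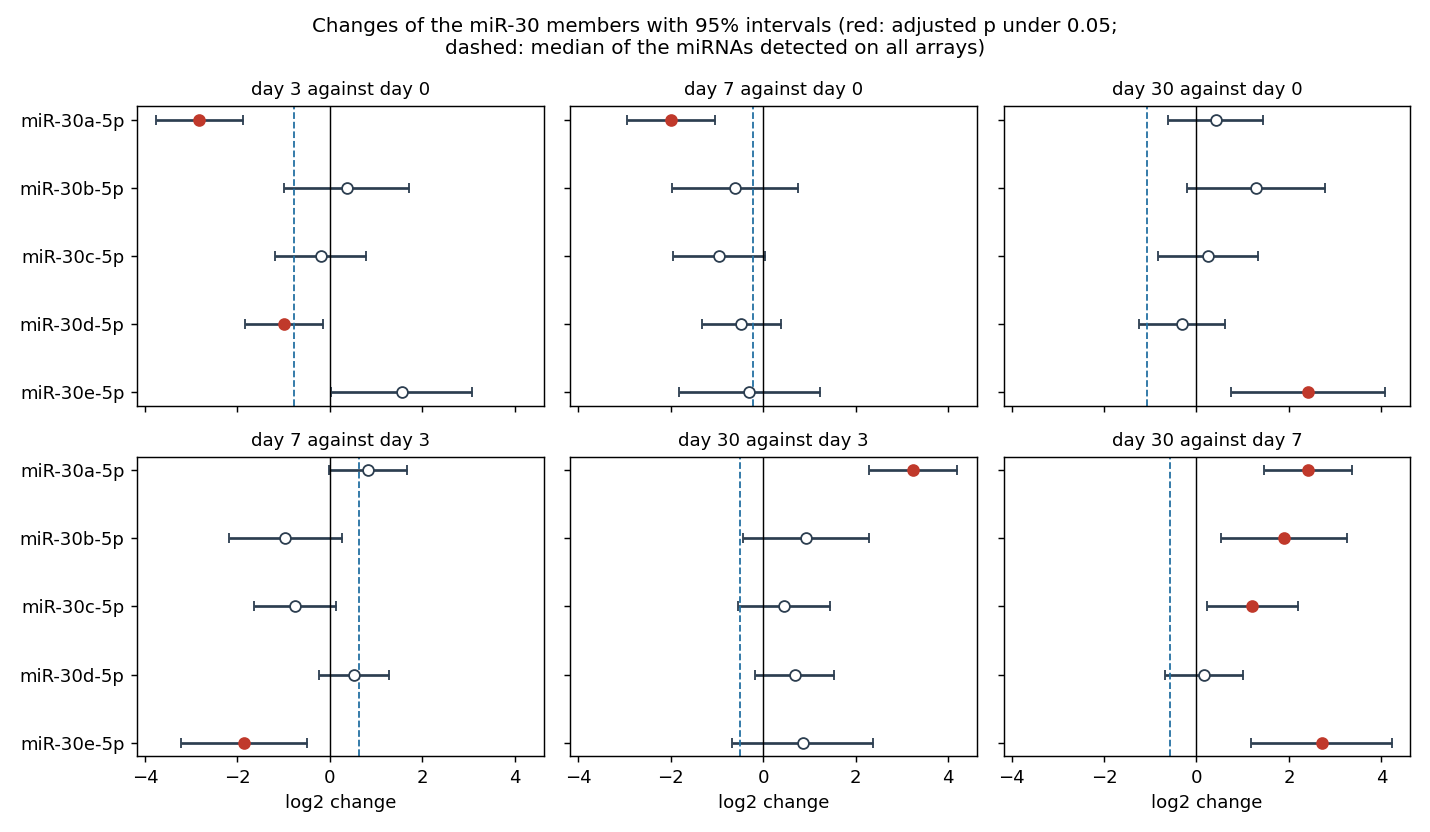
Fitted log2 change of each miR-30 member in the 6 comparisons (later day over earlier day) with 95% confidence intervals; red points are called at a limma adjusted p under 0.05, open points are not, and dashed lines are medians of the 126 miRNAs detected on all arrays. miR-30a-5p has the lowest value for day 3 over day 0 (-2.82) and the highest for day 30 over day 3 (3.24), and its day 3 value turns to 0.67 with no scaling.

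Counted over the family, 4 of 5 members rose between day 30 and day 7 (80%), where 47.7% of all tested miRNAs were called in either direction and their median change was -0.68. miR-30d-5p, at 0.17, was the exception. With brightness as a covariate none of the 4 was called, where 13 of all 369 miRNAs were. In the other comparisons 1 or 2 of 5 members were called. Between day 30 and day 3, 1 member rose (20%), where 30.9% of all were called. Between day 7 and day 3, 1 fell, where 37.1% were called. Between day 30 and day 0, 1 rose, where 56.4% were called. Between day 3 and day 0, 2 fell (40%), where 55.3% were called, and between day 7 and day 0, 1 fell, where 3.79% were called. The median change of the 5 members was 1.90 for day 30 over day 7, 0.85 for day 30 over day 3, -0.76 for day 7 over day 3, 0.41 for day 30 over day 0, -0.20 for day 3 over day 0 and -0.60 for day 7 over day 0. Over all 369 miRNAs it was -0.68, -0.41, 0.61, -1.37, -0.79 and -0.51 in the same comparisons. The share of members called exceeded that of all miRNAs for day 30 over day 7 and, through 1 member, for day 7 over day 0.

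The scale divides out of the difference between miR-30a-5p and another member on the same array, where neither is raised to the floor. Its shift between groups was tested over all 369 miRNAs (368 after the member set against). The calls still depended on the scale. Relative to miR-30b-5p, the day 3 shift against day 0 had a limma adjusted p of 0.101 on the chosen scale. It was 0.0386 with no scaling and 0.0362 on the control features. miR-30a-5p minus miR-30c-5p was 1.02 and 1.10 at day 0, -1.58, -1.52 and -1.58 at day 3, 0.00, 0.21 and -0.14 at day 7, and 1.04, 1.39 and 1.40 at day 30. The day 3 arrays formed a tight group below all others, and those of days 0 and 30 overlapped. A value of such a difference compares different probes and has no meaning as a ratio of molecules, so only its shift between days is read. The shift was -2.62 for day 3 over day 0 (limma adjusted p = 0.00462), where 15.5% of all miRNAs shifted relative to miR-30c-5p, and 2.78 for day 30 over day 3 (limma adjusted p = 0.00696), where 13.9% did. The day 3 shift against day 0 was called in all leave-outs and under all 12 other settings (-3.22 to -2.17). The shift for day 30 over day 3 was not called without day 30 replicate 1 (2.96, limma adjusted p = 0.0897) and with all miRNAs tested (2.78, limma adjusted p = 0.0950).

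Relative to miR-30d-5p, miR-30a-5p shifted by -1.83 for day 3 over day 0 (limma adjusted p = 0.00649; 31.2% of all miRNAs), by 2.55 for day 30 over day 3 (limma adjusted p = 0.00139; 42.7%) and by 2.25 for day 30 over day 7 (limma adjusted p = 0.00208; 43.8%). All 3 were called in every leave-out, and the last was lost with brightness as a covariate (0.96, limma adjusted p = 0.432). Relative to miR-30e-5p the day 3 shift against day 0 was -4.38 (limma adjusted p = 0.00917; 40.5%), with a value of -4.13 that was no longer called without day 0 replicate 2 (limma adjusted p = 0.137) and -1.61 with brightness as a covariate (limma adjusted p = 0.297). On that array miR-30e-5p was not detected. Relative to miR-30b-5p the same shift was -3.18, and it was not called in a comparison where 1.09% of all miRNAs were (limma adjusted p = 0.101). Under 9 of 12 other settings it was called (-3.71 to -3.04, limma adjusted p = 0.00252 to 0.0427). Among them were no scaling, the control features, and slide or replicate number as a block. It was also called without day 0 replicate 1 (-3.50, limma adjusted p = 0.0102) and without day 7 replicate 2 (limma adjusted p = 0.0293). All 4 shifts for day 3 over day 0 were negative.

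The shifts between the other days differed by member. For day 30 over day 3 those relative to miR-30b-5p and miR-30e-5p were 2.30 and 2.38 and not called (limma adjusted p = 0.133 and 0.233), where 2.99% and 2.17% of all miRNAs were. The first was called under 4 of 12 other settings (slide, brightness or replicate number in the fit and 11 separate arrays, 2.16 to 2.86, limma adjusted p = 0.000313 to 0.0393) and without day 0 replicate 1 or 2 (0.0490 in both). The second was called under 3 of 12, the highest floor, brightness and replicate number (2.38 to 3.04, limma adjusted p = 0.000182 to 0.0265), and without day 7 replicate 2 (limma adjusted p = 0.0445). For day 30 over day 7 the shift relative to miR-30c-5p was 1.20 (limma adjusted p = 0.0417; 54.3%), lost without day 3 replicate 1, 2 or 3, day 7 replicate 1 or 3 or day 30 replicate 1 (up to limma adjusted p = 0.146) and under 3 other settings, which are the authors' table, all miRNAs tested and brightness (limma adjusted p = 0.0535 to 0.204). Those relative to miR-30b-5p and miR-30e-5p were 0.52 and -0.30 (limma adjusted p = 0.613 and 0.819; 48.1% and 68.8%). limma thus called 2 of the 4 contrasts for day 30 over day 7.

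For day 7 over day 3, miR-30a-5p shifted by 1.58 relative to miR-30c-5p (limma adjusted p = 0.0265; 22.8%) and by 2.68 relative to miR-30e-5p (limma adjusted p = 0.0368; 42.7%). Both calls were lost when day 3 replicate 1, 2 or 3, day 7 replicate 2 or 3 or day 30 replicate 1 was left out (limma adjusted p up to 0.118 and 0.150). With brightness as a covariate they were also lost, at 1.28 (limma adjusted p = 0.0977) and 0.82 (limma adjusted p = 0.552), and the first was lost with all miRNAs tested (limma adjusted p = 0.0784). The shifts relative to miR-30b-5p and miR-30d-5p were 1.79 and 0.30 (limma adjusted p = 0.145 and 0.586; 0.815% and 29.9%). The one relative to miR-30b-5p was called with slide or replicate number as a block (limma adjusted p = 0.00782 and 0.0144). For day 7 over day 0, limma called 0 of 4 shifts and 2 of 4 had an unadjusted p under 0.05; they were -1.40, -1.04, -1.53 and -1.70 relative to miR-30b-5p, miR-30c-5p, miR-30d-5p and miR-30e-5p (0%, 2.17%, 5.98% and 0% of all miRNAs called, with 20 and 6 of all at an unadjusted p under 0.05 for the first and last). The shift relative to miR-30d-5p was called under 8 of 12 other settings (-2.22 to -1.53, limma adjusted p = 0.00586 to 0.0425) and without day 0 replicate 2 (-1.81, limma adjusted p = 0.0117). For day 30 over day 0, limma called 0 of 4, and 0 had an unadjusted p under 0.05; they were -0.88, 0.16, 0.72 and -1.998 (41%, 19.3%, 44% and 63%). The last was called under 3 of 12 other settings (-2.49 to -1.91, limma adjusted p = 0.00653 to 0.0443) and without day 7 replicate 2 (limma adjusted p = 0.0296).

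**Figure D3:**
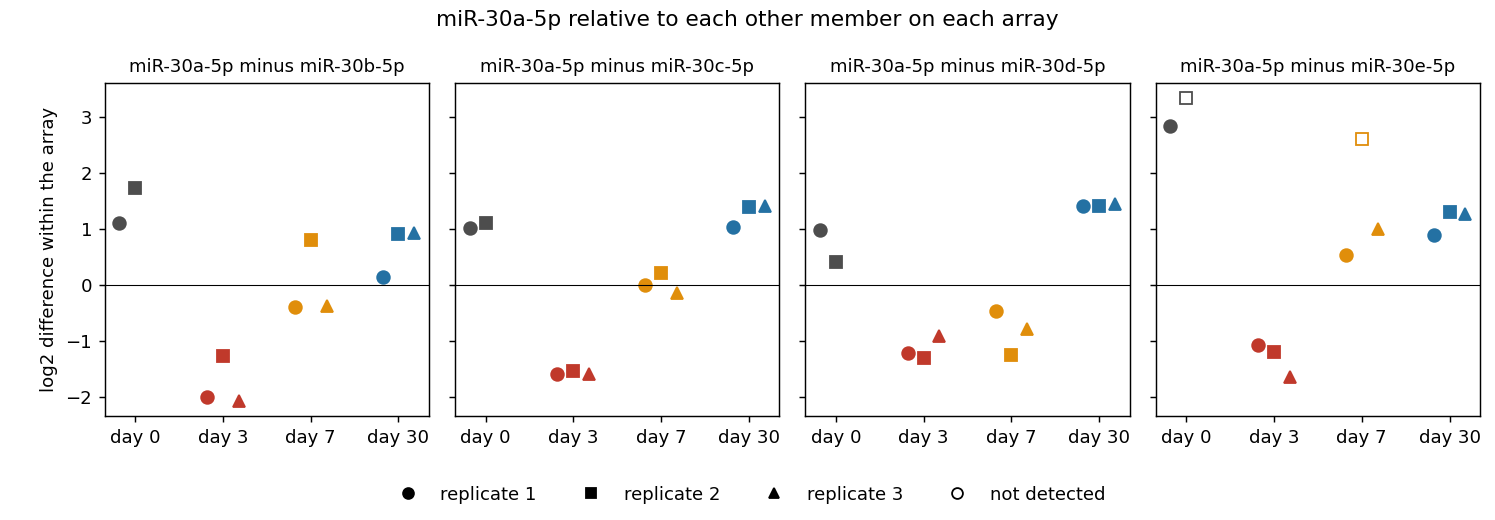
Difference on each array between miR-30a-5p and each other member (log2, by day), with 1 point per array and its shape for the replicate; open points mark arrays where the other member is not detected. In all panels the 3 day 3 arrays lie below the arrays of days 0 and 30, and only shifts between days are read, since the height of a panel depends on its probes.

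Against the mean of the other 4 members, the difference on the array was 1.48 and 1.64 at day 0, -1.46, -1.32 and -1.55 at day 3, -0.08, 0.59 and -0.08 at day 7, and 0.87, 1.25 and 1.26 at day 30. The group means were 1.56 ± 0.11 (n = 2), -1.44 ± 0.11 (n = 3), 0.14 ± 0.38 (n = 3) and 1.06 ± 0.27 (n = 2, SD), and the ranges of the 4 days did not overlap. The mean includes miR-30e-5p at background level on day 0 replicate 2 and day 7 replicate 2, where it was not detected, so the values of those arrays rest in part on background. Day 3 against day 0 moved by -2.99 on slide 1 and by -2.96 on slide 2, and day 30 against day 3 by 2.37 and 2.58.

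The 3p arms of the same hairpins were read as a separate set of signals with their own probes. Some differ by so little that their sequences are shown, in RefSeq's GRCm38.p6 entries, with the bases that differ within each pair in capitals.
miR-30a-3p: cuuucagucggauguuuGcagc
miR-30e-3p: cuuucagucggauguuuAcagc
miR-30c-2-3p: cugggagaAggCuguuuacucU
miR-30c-1-3p: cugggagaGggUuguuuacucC
Counted from the 5′ end, miR-30a-3p differed from miR-30e-3p by G18A, and miR-30c-1-3p from miR-30c-2-3p by G9A, U12C and C22U. miR-30a-3p, from the hairpin of miR-30a-5p, was detected on the 3 day 30 arrays alone, at 44.0, 28.6 and 32.8 scanner units. Its neighbour miR-30c-2-3p was also detected on these arrays alone, at 11.03, 8.43 and 10.2 scanner units. Both come from the cluster on chromosome 1.

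miR-30a-3p passed the filter through the day 30 arrays alone, so its changes in the fit are not read and only bounds are given. It was at least 7.07-fold higher at day 30 than at day 3, and at least 2.78-fold higher at day 30 than at day 7. These bounds set the mean of the day 30 arrays against, on each array of the other group, the higher of its lowest detected signal and the level of miR-30a-3p itself in the fit. Against day 0 the bound was 1.12-fold, and no rise is read from it. Other 3p arms were detected on the day 3 arrays. The 75th percentiles were 962, 805 and 1607 scanner units for day 3 replicates 1, 2 and 3, and 2304, 1453 and 1754 for those of day 30. The part of brightness in the detection of the 3p arms was not tested. miR-30e-3p had 31.9, 14.5 and 16.8 scanner units at day 30, and 12.3, 11.7 and 28.4 at day 3. miR-30b-3p had 13.4, 8.98 and 10.4 scanner units at day 30, and 7.30, 9.86 and 16.3 at day 3. miR-30c-1-3p was likewise detected on the 3 arrays of both days, with 2.78 to 4.03 scanner units at day 30 and 2.40 to 3.83 at day 3.

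miR-30c-2-3p also passed the filter through the day 30 arrays alone, so its changes in the fit are not read either. miR-30d-3p was detected on day 30 replicates 1 and 3 only, at 3.23 and 2.29 scanner units. No 3p arm was detected on an array of day 0 or day 7, and those arrays were also the dimmest. Against day 0, limma gave lower calls to 4 of these arms at day 3 and to 3 at day 30, but none of them was detected at day 0, so they are not read as falls. miR-384-5p and miR-30f were detected on 0 of 11 arrays.

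**Figure D4:**
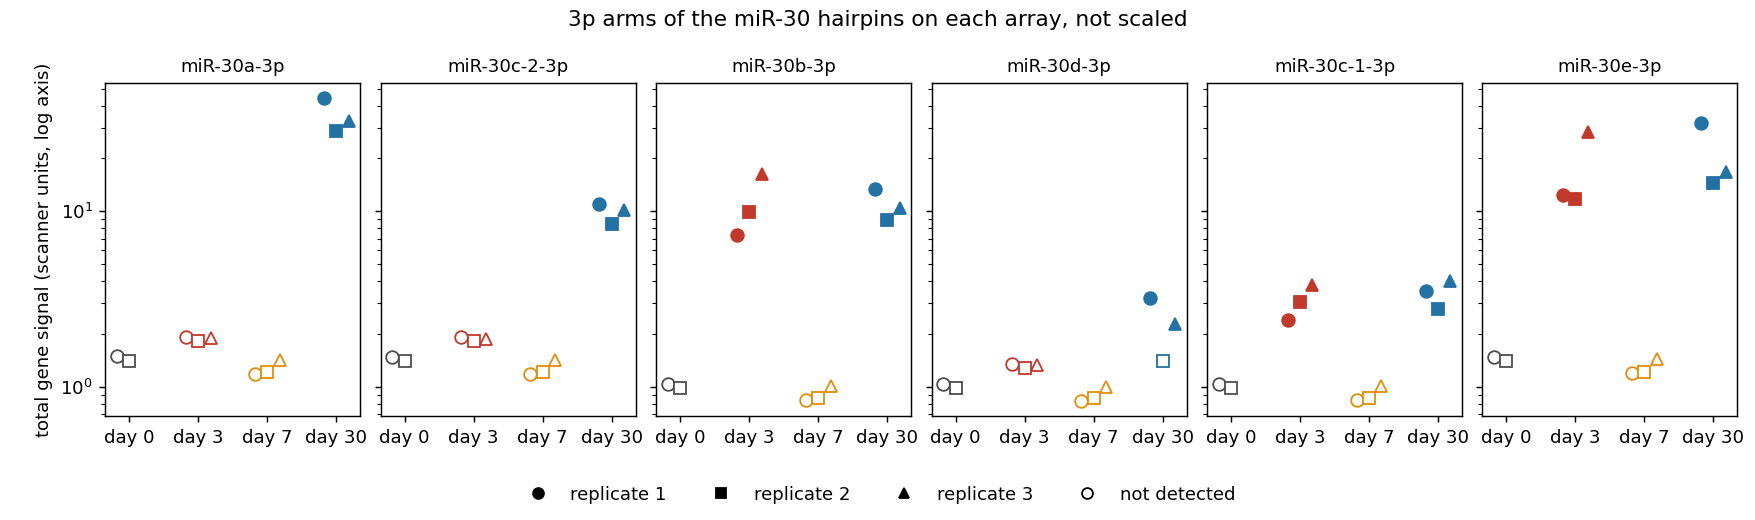
Signal of the 3p arms on each array (scanner units, log axis) by day, with the shape for the replicate; filled points are detected and open points are not. miR-30a-3p and miR-30c-2-3p are filled on the day 30 arrays alone, and miR-30b-3p, miR-30c-1-3p and miR-30e-3p also on the day 3 arrays.

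The members were also set against brightness within groups. At days 0 and 7 replicate 2 was the dimmest array of its group. Its level minus that of replicate 1 was -0.88 and -0.81 for miR-30a-5p, -1.51 and -1.998 for miR-30b-5p, -0.96 and -1.01 for miR-30c-5p, -0.31 and -0.01 for miR-30d-5p and -1.38 and -2.87 for miR-30e-5p. miR-30d-5p differed least in both pairs, and at day 7 by less than the scanner's error on the dim array (0.14 on the log2 scale). The other members lay lower on both dim arrays. miR-30e-5p was not detected on either of them, so its values set background against a detected signal. In both pairs replicate 1 was on slide 1 and replicate 2 on slide 2, so brightness and slide cannot be told apart there. At day 30 the brightest array, replicate 1, had the lowest miR-30a-5p level of its group (-1.21) and the highest miR-30b-5p level (-1.35). The part of brightness in the differences between days was not tested beyond its use as a covariate.

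**Figure D5:**
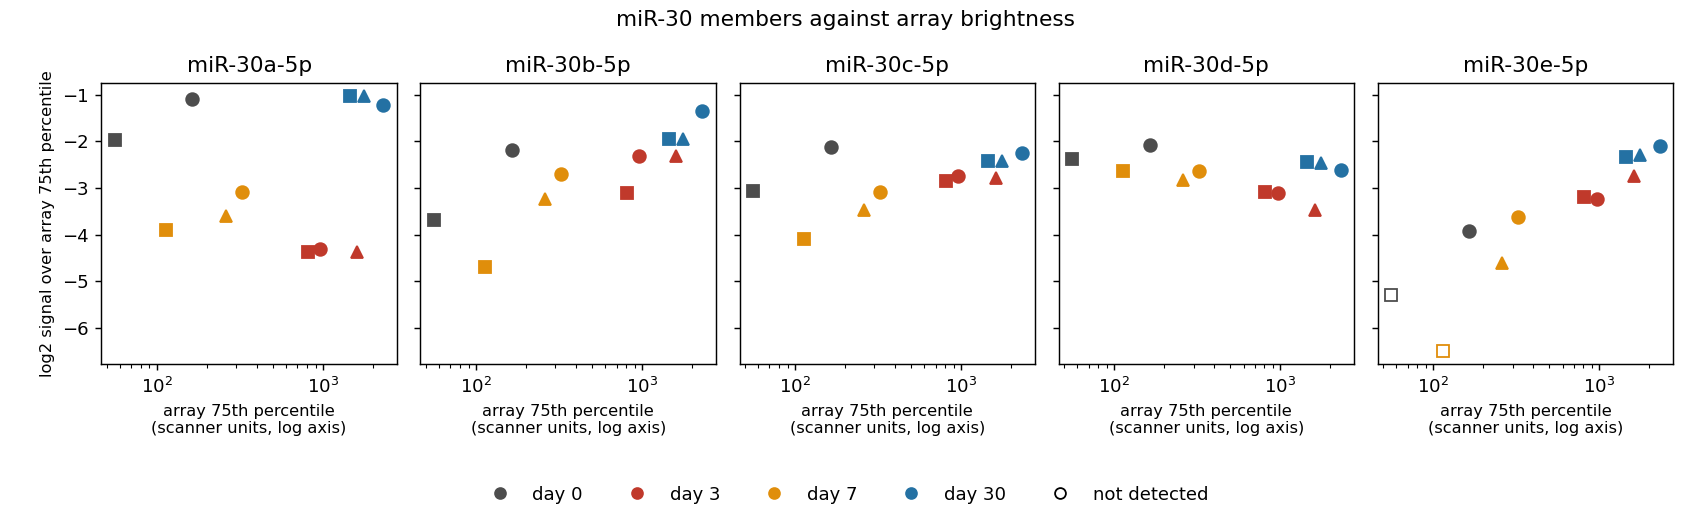
Level of each member (log2 of signal over the array's 75th percentile) against the array's brightness (75th percentile in scanner units, log axis), with colour for the day and shape for the replicate; open points are not detected. The miR-30a-5p points of the bright day 3 arrays lie at the bottom of its panel, at -4.31 to -4.38, and those of the day 30 arrays near the top.

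Among the 122 other miRNAs detected on all arrays, the closest to miR-30a-5p in level over the 10 samples were miR-511-3p (Pearson r = 0.952), miR-99a-5p (0.914), miR-146a-5p (0.847), let-7e-5p (0.841) and miR-23a-3p (0.835). miR-511-3p is encoded within Mrc1, the mannose receptor of macrophages. The closest to the mean of the other 4 members were miR-350-3p (0.978), miR-26a-5p (0.956), miR-27a-3p (0.925), miR-26b-5p (0.914) and miR-29b-3p (0.900). No miRNA was in both lists of 5. The samples share arrays, scaling and brightness, and these correlations are descriptions without a test.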

How the data were processed

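miRNA levels were measured on 11 1-colour Agilent arrays, and the groups came from the sample titles. Images were read with Agilent Feature Extraction, per the submitters' processing notes, with no version stated in the sources used here. Per the file headers, the deposited scanner files give the intensity of each gene in total, not logged, with an error and a flag for detection, over 1247 miRNAs and 21 controls. The authors' deposited table of log2 values, quantile normalized, for 317 miRNAs served as an alternative. Signals were divided by the array's 75th percentile among the 126 commonly detected miRNAs, raised to 0.00271 where lower (log2 -8.53), and logged. The 369 miRNAs that at least 2 arrays detected were tested, and 852 were never detected. All 4 groups entered 1 fit in limma 3.58.1 (R 4.3.3; jsonlite 2.0.0 read the labels), using 10 samples and 6 residual degrees of freedom. A miRNA was called where its p, adjusted by Benjamini-Hochberg within 1 of the 6 comparisons, was under 0.05. Relative tests subtracted the other member's log2 value from the whole table on each array. The code was tested on simulated data. Named miRNAs were the 5 members, their 3p arms and seed relatives, the marker lists, and the 5 most alike by Pearson r. The members and lists were chosen with earlier results of these data known. The alternatives were 4 other scales, quantile normalization, the authors' table, a higher floor, 2 filters, slide, brightness or replicate number in the fit, 11 separate arrays, and each array left out. No coordinates come from the array files, which name no genome build.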

Additional observations from a re-analysis of the deposited data

How the results depend on the processing

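Over 66 values and 24 alternatives, 1542 recomputed values included 1258 that kept direction and side of the threshold or moved by less than the spread, 49 that turned sign without a call, 74 that lost and 82 that gained a call, 60 that moved and 19 that reversed. Dim arrays at days 0 and 7 limit what was detected, and brightness differs with the day. The cause of the changes that follow was not tested. For miR-30a-5p, the percentile over all miRNAs, no scaling and the control features gave -0.28, 0.67 and 0.16 for day 3 over day 0, -0.68, -0.85 and -0.82 for day 7 over day 0 (-1.49 when scaled to the median) and 3.36, 4.74 and 4.34 for day 30 over day 0. Brightness as a covariate gave 1.20 for day 30 over day 7 and 1.72 for day 7 over day 3, where testing only miRNAs detected on all arrays called 0.82.

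Relative to the mean of the other 4 members, quantile normalization, the authors' table and brightness gave -3.39, -3.53 and -1.97 for day 3 over day 0, -1.82, -1.90 and -1.08 for day 7 over day 0, and -0.87, -0.83 and 0.78 for day 30 over day 0. Brightness gave 1.86 for day 30 over day 7 and 0.89 for day 7 over day 3. Leaving out each array moved these differences between -3.08 and -2.93, -1.64 and -1.31, -0.58 and -0.31, 0.81 and 1.14, and 1.37 and 1.70, and between 2.45 and 2.70 for day 30 over day 3. Leave-outs of miR-30a-5p gave -3.27 to -2.38, -2.44 to -1.56, -0.03 to 0.85, 0.60 to 1.01, 3.22 to 3.33 and 2.23 to 2.63 at day 3, 7 and 30 against day 0, day 7 and 30 against day 3, and day 30 against day 7.

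The number of the 5 members called was 2 for day 3 over day 0, but 1 with the percentile over all miRNAs or quantile normalization and 4 with no scaling or the control features. The chosen scale and these settings, in this order, called 204, 193, 158, 251 and 238 of all 369 miRNAs. For day 30 over day 0 the number of members was 1, but 5 with the percentile over all miRNAs, no scaling or the control features. It was 2 when scaled to the median, with all miRNAs tested, with slide or replicate number as a block, and 0 with brightness. Of all 369 miRNAs 208 were called, against 199, 276 and 274 with the first of these settings. The median scale called 211, all miRNAs tested 1109 of 1247, slide 239, replicate number 242 and brightness 0. The number of members was 1 for day 30 over day 3, but 2 on the control features, with the highest floor or with slide. Over all 369 miRNAs the calls were 114, 153, 53 and 149 in the same order. Members called were 4 for day 30 over day 7, but 2 with the highest floor and 0 with brightness, where 176, 89 and 13 of all 369 miRNAs were. For day 7 over day 0 the number of members was 1, but 0 on the percentile over all miRNAs, the median, no scaling or the control features and 4 with brightness. Over all 369 miRNAs the calls were 14, 61, 32, 45, 80 and 69 in that order. For day 7 over day 3 the number of members was 1, but 0 on the percentile over all miRNAs or quantile normalization, 4 with no scaling or the control features, and 2 with slide or replicate number as a block. The calls over all 369 miRNAs were, in that order, 137, 117, 143, 208, 181, 203 and 202. Leave-outs gave 1 to 3, 0 to 2, 0 to 1 and 0 to 2 members at day 3, 30 and 7 against day 0 and day 7 against day 3, and 2 to 4 for day 30 over day 7. Over all 369 miRNAs they gave 128 to 240, 102 to 263, 0 to 169, 82 to 220 and 110 to 208 calls in the same order.

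Reversed values of single members were, with brightness, -3.31 for miR-30b-5p for day 3 over day 0, and for day 30 over day 7 -1.44 for miR-30b-5p, -0.42 for miR-30c-5p and -1.02 for miR-30e-5p, with -2.67 for miR-30e-5p for day 30 over day 0 and 0.90 for day 7 over day 3. With no scaling and the control features miR-30c-5p was 3.30 and 2.78 for day 3 over day 0, and miR-30d-5p was 2.50 and 1.99 (1.55 on the percentile over all miRNAs) for day 3 over day 0, 4.02 and 3.62 (2.64) for day 30 over day 0 and -1.82 and -1.29 for day 7 over day 3.

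Over all miRNAs, the calls for day 3 over day 0 numbered 204 (60 higher and 144 lower), 68 with brightness and 1110 with all miRNAs tested, and no scaling gave 250 higher and 1 lower. For day 7 over day 0 there were 14 (12 and 2), 4 with only miRNAs detected on all arrays, 1011 with all tested, and 45 higher and 0 lower with no scaling. There were 208 (33 and 175) for day 30 over day 0, 0 with brightness, 1109 with all tested, and 276 higher and 0 lower with no scaling. For day 7 over day 3 there were 137 (78 and 59), 58 with brightness, 790 with all tested, and 2 higher and 206 lower with no scaling. There were 114 (36 and 78) for day 30 over day 3, 50 with only miRNAs detected on all arrays, and 76 higher and 55 lower with no scaling. There were 176 (50 and 126) for day 30 over day 7, 13 with brightness, 246 on the control features, and 234 higher and 10 lower with no scaling.

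The replicate numbers were not taken to pair the samples, since 6 of 15 same-number pairs, and not all, correlated over 0.1 (-0.245 to 0.503, with 0.469 and 0.503 for the pairs of days 0 and 7). As a hint from the data, a sample was closest to its own number in 18 of 30 choices. With the replicate number as a block miR-30a-5p for day 30 over day 3 was 3.27, calls were gained for miR-30b-5p, miR-30e-5p and shifts relative to miR-30b-5p, miR-30d-5p and miR-30e-5p, and the calls over all miRNAs were 218, 15, 242, 202, 158 and 213 at day 3, 7 and 30 against day 0, day 7 and 30 against day 3 and day 30 against day 7.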
